A study of Mus musculus with 14 samples.

Results

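The collagen genes were taken as every gene of the count table whose symbol reads Col, a number, a and a number, which gave 44 of 28022 genes. By the structure of their proteins, 11 encode fibrillar collagens, 6 encode the type IV collagens of basement membranes, and 27 encode other collagens. The other collagens were 6 chains of type VI, 9 FACIT collagens (fibril-associated collagens with interrupted triple helices), 3 short chain collagens, 2 multiplexins, type VII, 4 transmembrane collagens, and 2 genes without a class, *Col26a1* and *Col28a1*. Each of the 44 genes was examined in 14 RNA-seq libraries, 2 from each of 7 conditions, with all mouse cells from C57BL/6J animals.

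Fibroblasts (label Fib) were mouse embryonic fibroblasts at an early passage. Induced hepatic stem cells (iHepSCs) were made from such fibroblasts by lentiviral delivery of *Oct4* and *Hnf4alpha*. They were grown as a flat culture (2D-iH, label 2D-iHepSC) or together with induced endothelial cells, the iECs, on plates coated with type I collagen (2D-iHE, label 2D-iHepSCiEC). In 3D, the liver organoids held iHepSCs alone (iHLO, label 3D-iHA) and the assembloids held iHepSCs and iECs (iHEA, label 3D-iHEA), both inside a hydrogel of type I collagen and Matrigel. The collagen of coatings and gels is protein and is not measured by RNA-seq. The iECs were converted with ETV2 from the human fibroblast line HF1, so 2D-iHEs and iHEAs mixed mouse and human cells, and a human read entered the counts if it aligned to a mouse gene. Adult liver (Adult-Liver) came from 6-week-old mice and fetal liver (Fetal-Liver) from mid-gestation embryos. All cultures carried the lentiviral factors of the iHepSCs, which fibroblasts and livers lacked. In the text, the values of a condition are given in the order of its libraries 1 and 2, and the second iHEA library has no clear number.

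Collagens are trimers of alpha chains, each encoded by its own gene. Fibrillar collagens (types I, II, III, V and XI) build the tensile fibers of connective tissue and scar, and type IV forms the sheet-like network of basement membranes, on which epithelial and endothelial cells rest. Multiplexins (types XV and XVIII) sit at basement membranes, type VI forms beaded filaments close to cells, and type VII forms the anchoring fibrils under epithelia. In liver, stellate cells and portal fibroblasts are the known sources of fibrillar collagen, while type IV and type XVIII are made by several cell types.

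The genes of the type IV chains lie in head-to-head pairs. *Col4a1* (GRCm38 chr8:11198423-11312826, minus strand) and *Col4a2* (chr8:11312805-11449287, plus strand) encode the chains found in nearly all basement membranes, and their annotated starts overlap. *Col4a4* and *Col4a3* on chromosome 1 start 72 bases apart, and *Col4a6* and *Col4a5* on chromosome X start 1309 bases apart. The promoters of the *Col4a1* and *Col4a2* pair are shown because these windows overlap and both genes were lower in 3D than in 2D, with those of *Col7a1* and *Col15a1*, which had the largest called fall and rise between 2D and 3D. All are from RefSeq on GRCm38.p6, 250 bases before to 50 after the start, 5′ to 3′ on the strand of the gene. Capitals mark, on either strand, the word CCAAT of the CCAAT box, the word GGGCGG of the GC box where factors of the Sp family bind, and the word TATAAA of the TATA box.
Col4a1 (chr8:11312777-11313076, minus): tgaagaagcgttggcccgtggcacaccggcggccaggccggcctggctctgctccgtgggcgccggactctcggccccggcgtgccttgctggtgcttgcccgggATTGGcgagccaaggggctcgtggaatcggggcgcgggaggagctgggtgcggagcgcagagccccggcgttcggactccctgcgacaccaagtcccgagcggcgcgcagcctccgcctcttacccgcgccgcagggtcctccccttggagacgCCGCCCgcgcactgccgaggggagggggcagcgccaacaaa
Col4a2 (chr8:11312555-11312854, plus): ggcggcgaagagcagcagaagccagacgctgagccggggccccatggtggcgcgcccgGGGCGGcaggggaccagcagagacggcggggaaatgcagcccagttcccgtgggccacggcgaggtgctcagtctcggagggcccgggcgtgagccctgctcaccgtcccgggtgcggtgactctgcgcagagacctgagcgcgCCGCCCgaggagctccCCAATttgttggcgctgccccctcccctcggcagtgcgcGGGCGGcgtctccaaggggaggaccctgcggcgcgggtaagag
Col7a1 (chr9:108953336-108953635, plus): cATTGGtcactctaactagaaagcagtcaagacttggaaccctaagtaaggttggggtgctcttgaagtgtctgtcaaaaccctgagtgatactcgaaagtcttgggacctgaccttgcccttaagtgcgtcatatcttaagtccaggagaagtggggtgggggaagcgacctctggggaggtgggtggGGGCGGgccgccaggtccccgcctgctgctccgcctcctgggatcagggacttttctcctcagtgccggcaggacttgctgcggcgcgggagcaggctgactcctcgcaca
Col15a1 (chr4:47207762-47208061, plus): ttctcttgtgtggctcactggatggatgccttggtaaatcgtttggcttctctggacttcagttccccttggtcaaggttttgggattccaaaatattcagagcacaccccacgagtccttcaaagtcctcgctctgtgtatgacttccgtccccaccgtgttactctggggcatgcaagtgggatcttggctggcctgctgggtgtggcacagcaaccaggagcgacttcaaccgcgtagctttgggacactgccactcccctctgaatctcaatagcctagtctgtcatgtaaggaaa
The *Col4a1* and *Col4a2* windows shared 78 bases. The *Col4a1* window held 1 CCAAT and 1 GGGCGG, the *Col4a2* window 1 CCAAT and 3 GGGCGG, and the *Col7a1* window 1 of each, whereas the *Col15a1* window held none of the 3 words. A promoter was found for 35 of the 44 genes, in 38 windows. GGGCGG was in 60.5% of these 38 windows and in 35.7% of all 32851 windows of the table, CCAAT in 34.2% and 37.4%, and TATAAA in 13.2% and 13.6%. The median GC content was 59.8% in the collagen windows and 52.7% in all windows. A word found in a window is a description of its letters only.

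The libraries held 20851489 to 35143325 counts, with a median of 28755832.5, so that 3 counts were worth 0.0854 to 0.144 CPM (counts scaled to the total of the library). The label of a condition was checked against markers. Adult liver had 236371 and 225251 CPM of the albumin gene *Alb*, fetal liver had 13409 and 10577 CPM, and the 8 culture libraries had 6.36 CPM or less. The 6.36 CPM were in the first 2D-iH library, and the other culture libraries had 0.698 CPM or less. In the cultures the hepatocyte markers were mainly *Apoa1* (239.9 to 353 CPM). The endothelial adhesion gene *Cdh5* had 493 and 491 CPM in 2D-iHs, which had received no iECs, and 458 and 453 CPM in 2D-iHEs, while *Pecam1* stayed below 1 CPM in all 8 culture libraries. The counts of the 2 libraries of a condition differed by a chi-square of 3.05 to 3.67 per gene in 5 conditions, by 11.5 in iHEAs and by 13.4 in fetal livers. Differences are read against this spread, which may be technical, since every label reads replicate 1 and no source names separate cultures or animals.

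Collagen genes took 49619.7 ± 1939 CPM in fibroblasts and only 3184 ± 144 CPM in 2D-iHs (mean ± SD, n = 2), summed over the 44 genes. The sum was 3636 ± 213 CPM in 2D-iHEs, 1344 ± 38.9 in iHLOs, 1281 ± 99.6 in iHEAs, 1093 ± 35.6 in adult livers and 4612 ± 1482 in fetal livers. CPM rest on library totals, of which albumin took 23.6% and 22.5% in adult livers. The order of adult livers and 3D cultures therefore depends on the scaling. In these bulk samples, fewer cells of a type and less RNA per cell cannot be told apart. Fewer members were above 3 counts in the cultures than in fibroblasts. In fibroblasts 4 of the 44 genes had at most 3 counts in both libraries, in fetal livers 1 and in adult livers 9, against 19 in 2D-iHs, 18 in 2D-iHEs, 15 in iHLOs and 18 in iHEAs. The map of all 44 genes shows the same contrast between the fibroblast columns and the culture columns.

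**Figure D1:**
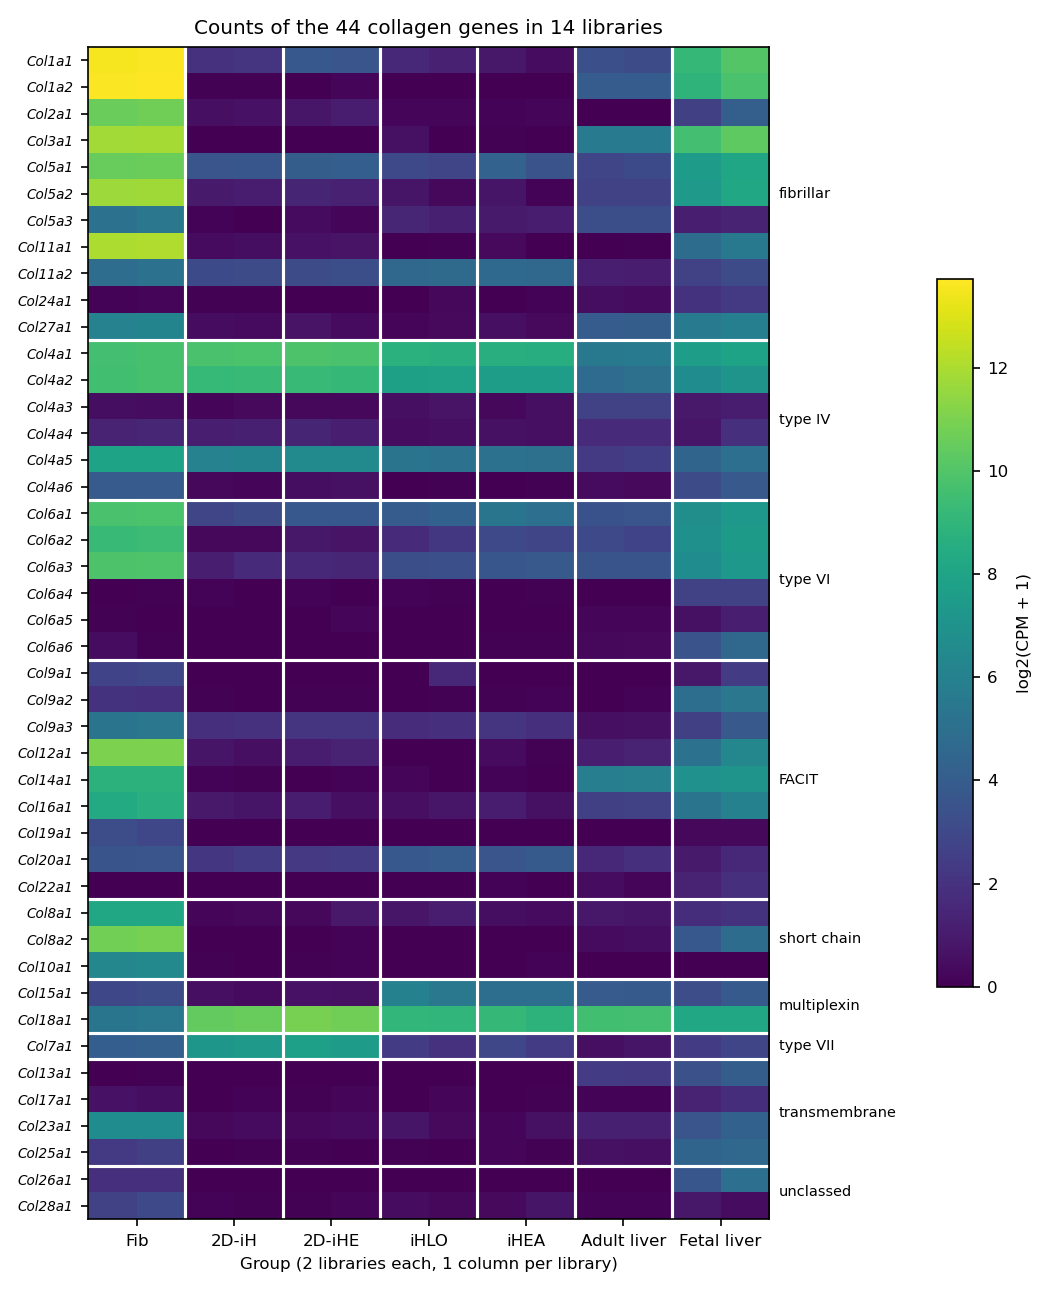
Level of each collagen gene in each library as log2(CPM + 1), with the genes as rows grouped by class and the libraries as columns, 2 per condition. Col1a1 is at 11635 and 12592 CPM in fibroblasts and at 12.5 CPM or less in the 8 culture libraries, where Col18a1, Col4a1 and Col4a2 are the brightest rows.

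The make-up of the collagen transcripts differed as well. To compare genes with each other, counts were divided by the length of the longest coding transcript (RPKM, CPM per kilobase). Fibrillar collagens held 80.6% of the summed collagen RPKM in fibroblasts and 66.0% in fetal livers, but 0.682% in 2D-iHs and 2.49% in iHLOs. In 2D-iHs type IV held 46.0% and the multiplexins 49.3%, and in iHLOs 46.3% and 46.6%. Adult liver was led by a single gene, *Col18a1*, with a mean of 138 RPKM, which was 72.6% of its collagen RPKM. The leading genes were *Col1a2* and *Col1a1* in fibroblasts (29.3% and 24.4%), *Col3a1* and *Col1a1* in fetal livers (23.4% and 17.3%), and *Col18a1* and *Col4a1* in 2D-iHs (49.3% and 26.2%), 2D-iHEs (54.1% and 22.8%), iHLOs (41.9% and 28.2%) and iHEAs (43.1% and 27.0%). These shares depend on the length used: with the union of all exons, fibroblast fibrillar collagens held 75.6% and the type IV share of 2D-iHs was 49.4%.

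**Figure D2:**
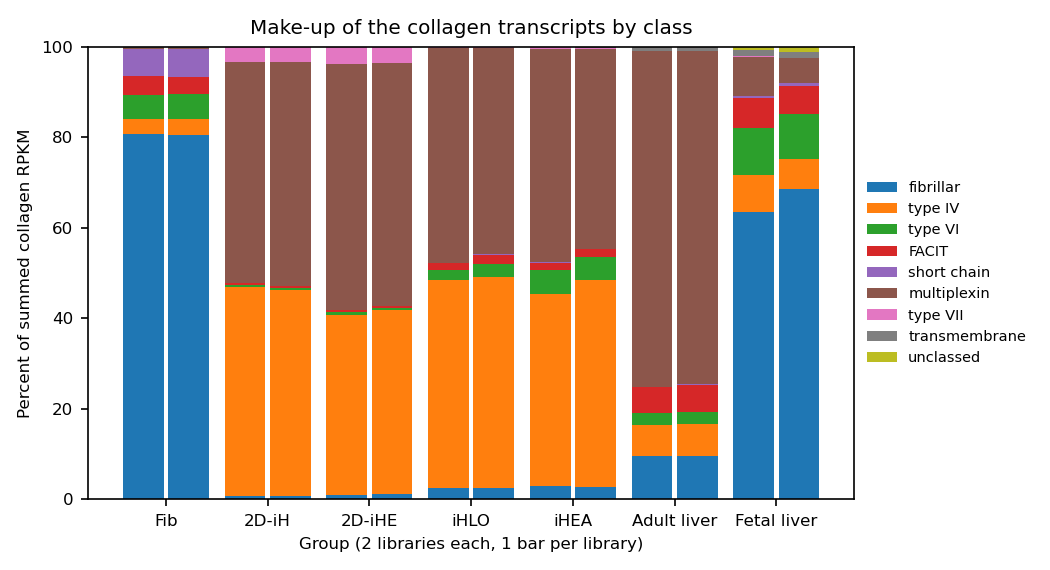
Share of each class in the summed collagen RPKM of each library, in percent, with 1 stacked bar per library and 2 bars per condition. Fibrillar collagens fill 80.6% of the fibroblast bars, and type IV with the multiplexins fills nearly all of the culture bars.

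The first comparison asks what became of the fibroblast collagens once the cells were converted to 2D-iHs. Of the 44 genes, 37 passed the filter on low counts and were tested. The test called 32 of them lower and 2 higher in 2D-iHs, while over all 14086 genes tested 42.9% were lower and 42.0% were higher (edgeR quasi-likelihood test, Benjamini-Hochberg adjusted p under 0.05). The median log2 fold change of the 37 was −8.57, or −7.09 with the 3 genes that had no count in 2D-iHs set to their bound, against −0.01 over all genes. All 10 tested fibrillar genes were lower. The filter took the mean over the 4 libraries compared, for all genes alike. A gene at the floor in 2D-iHs could therefore be tested through its fibroblast counts alone, and such a gene could only be called lower. *Col19a1*, with 467 counts in fibroblasts and 0 in 2D-iHs, was one of them. The same limit holds in the tests with livers. Log2 fold changes are given ± SE of the fit. Fibroblasts also carried 29236 and 29545 CPM of 13 fibroblast markers against 2058 and 2106 CPM in 2D-iHs, where *Vim* made up 1784 and 1834 CPM, and their part in the result was not tested.

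Among the fibrillar genes, *Col1a1* and *Col1a2*, the chains of type I collagen, were the most abundant transcripts of fibroblast collagen. *Col1a1* had 11635 and 12592 CPM in fibroblasts, 2.82 and 3.19 in 2D-iHs, 12.5 and 11.2 in 2D-iHEs, 2.05 and 1.39 in iHLOs, 0.838 and 0.379 in iHEAs, 9.003 and 7.97 in adult livers and 570.2 and 1061 in fetal livers. Fibroblasts stood above every other library, 2D-iHEs above the other cultures, and iHEAs lowest. Its level in 2D-iHs was 4035 times lower than in fibroblasts (log2 fold change −12.06 ± 0.31, adjusted p = 5.0e-15). *Col1a2* had 12842 and 13420.0 CPM in fibroblasts, 0.0606 and 0.0685 in 2D-iHs, 0.0285 and 0.144 in 2D-iHEs, 0 in both in iHLOs, 0 in both in iHEAs, 14.9 and 14.7 in adult livers and 491 and 889.7 in fetal livers. No culture library had more than 3 counts of it, and 795099 counts in fibroblasts stood against 4 in 2D-iHs, a CPM ratio of 203749 with an exact 95% counting interval of 79577 to 747799. Counting intervals cover counting error only. The partner chain of type I collagen was therefore at the floor in the 8 culture libraries, where *Col1a1* still had 9 to 441 counts.

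*Col3a1*, the chain of type III collagen in the reticular fibers of liver, had 3596 and 3760.2 CPM in fibroblasts, 0 and 0.0343 in 2D-iHs, 0 in both in 2D-iHEs, 0.555 and 0 in iHLOs, 0.0698 and 0 in iHEAs, 46.8 and 49.2 in adult livers and 791 and 1279 in fetal livers. The 2D-iHs had 0 and 1 counts, and the 0.555 CPM of the first iHLO library were 16 counts against 0 in the second. *Col5a1*, a chain of the type V collagen that joins type I fibrils, had 1462 and 1572 CPM in fibroblasts, 11.2 and 11.8 in 2D-iHs, 15.3 and 16.2 in 2D-iHEs, 7.07 and 6.29 in iHLOs, 18.5 and 10.4 in iHEAs, 6.41 and 7.34 in adult livers and 191 and 280.3 in fetal livers. It was the fibrillar chain with the most counts in 2D-iHs and was 132 times lower there than in fibroblasts (log2 fold change −7.12 ± 0.21). *Col5a2* had 3359 and 3494 CPM in fibroblasts, 1.000 and 1.06 in 2D-iHs, 1.65 and 1.39 in 2D-iHEs, 0.728 and 0.214 in iHLOs, 0.733 and 0.0842 in iHEAs, 5.51 and 5.57 in adult livers and 162 and 291 in fetal livers. *Col5a3*, the rarer chain of type V, had 34.9 and 42.2 CPM in fibroblasts, 0.0909 and 0.0343 in 2D-iHs, 0.341 and 0.192 in 2D-iHEs, 1.77 and 1.32 in iHLOs, 1.01 and 1.05 in iHEAs, 8.65 and 8.91 in adult livers and 1.19 and 1.58 in fetal livers. Unlike *Col5a1* and *Col5a2*, it was higher in adult than in fetal liver.

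Chains known from cartilage were also high in the fibroblasts. *Col11a1*, of type XI, had 4231 and 4354 CPM in fibroblasts, 0.333 and 0.445 in 2D-iHs, 0.569 and 0.623 in 2D-iHEs, 0 and 0.0714 in iHLOs, 0.279 and 0 in iHEAs, 0 and 0.0571 in adult livers and 27.3 and 45.6 in fetal livers. *Col2a1*, of type II, had 1504 and 1684 CPM in fibroblasts, 0.455 and 0.617 in 2D-iHs, 0.797 and 1.06 in 2D-iHEs, 0.173 and 0.179 in iHLOs, 0.105 and 0.126 in iHEAs, 0 in both in adult livers and 4.95 and 16.8 in fetal livers. Both were far above all cultures, and *Col2a1* had no count in adult liver. *Col11a2*, the partner of *Col11a1*, had 28.6 and 33.7 CPM in fibroblasts, 7.39 and 7.91 in 2D-iHs, 8.14 and 8.97 in 2D-iHEs, 22.9 and 25.6 in iHLOs, 24.3 and 22.9 in iHEAs, 1.19 and 1.09 in adult livers and 5.44 and 7.73 in fetal livers. It was lower in 2D-iHs than in fibroblasts by a smaller log2 fold change (−2.10 ± 0.12) than the other tested fibrillar genes. Chondrocyte markers summed to 203 and 207 CPM in fibroblasts and 0.740 to 2.57 CPM in the 8 cultures, with *Acan* at 133 and 135 CPM in fibroblasts, and their part in these levels was not tested. *Col27a1* had 66.5 and 71.4 CPM in fibroblasts, 0.394 and 0.308 in 2D-iHs, 0.626 and 0.336 in 2D-iHEs, 0.173 and 0.286 in iHLOs, 0.489 and 0.295 in iHEAs, 14.9 and 15.8 in adult livers and 47.4 and 60.3 in fetal livers. Its levels were highest in fibroblasts, with fetal livers next. *Col24a1*, the remaining fibrillar gene, reached at most 3.94 CPM, in fetal liver, and was not tested against fibroblasts.

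**Figure D3:**
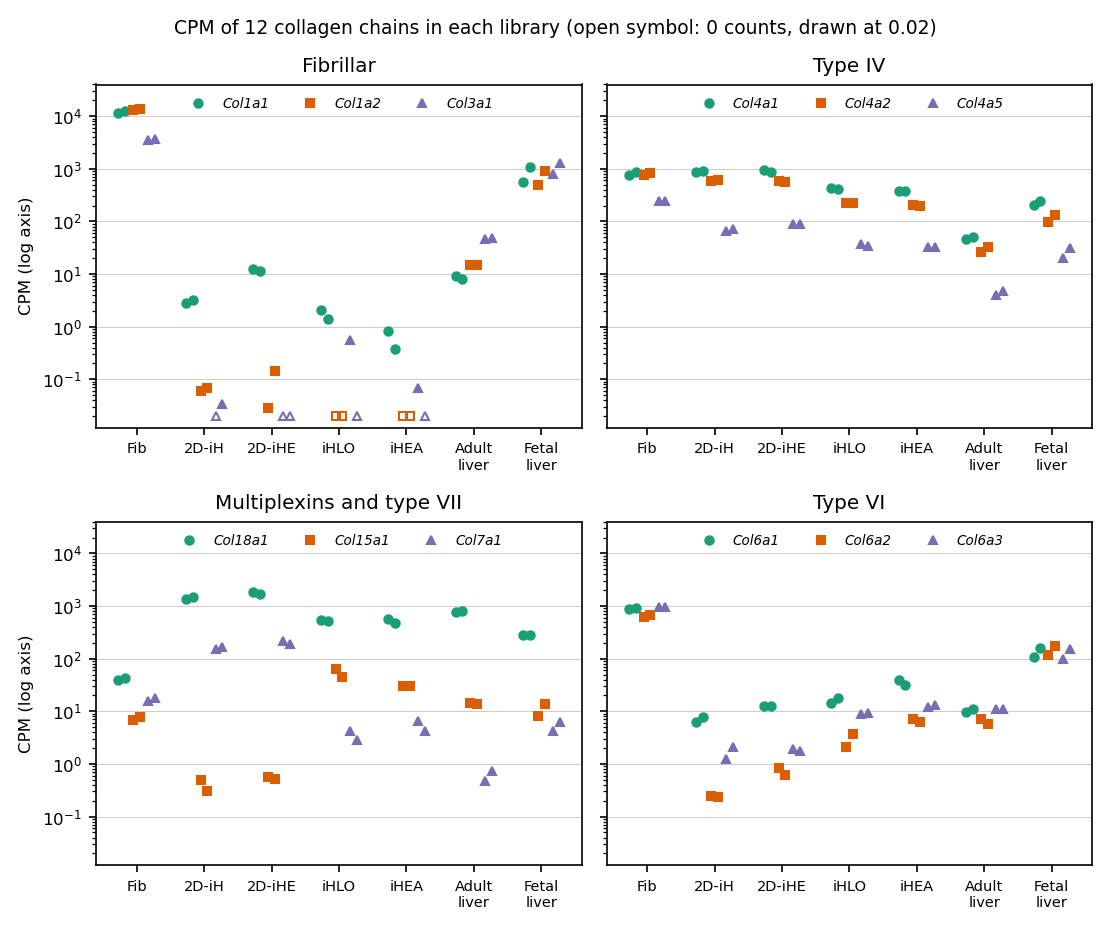
CPM of 12 collagen chains on a log axis, with 1 symbol per library and open symbols for libraries with 0 counts. The fibrillar chains span from 12842 and 13420.0 CPM of Col1a2 in fibroblasts to 0 counts in iHLOs and iHEAs, while Col4a1, Col4a2 and Col4a5 stay between 4.02 and 931 CPM in all libraries.

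Of 6 tested type IV genes 3 were lower in 2D-iHs than in fibroblasts and none was higher, where 42.9% of all genes were lower and 42.0% higher. *Col4a1* had 773 and 853 CPM in fibroblasts, 873 and 919 in 2D-iHs, 931 and 864 in 2D-iHEs, 426 and 407 in iHLOs, 386 and 377 in iHEAs, 45.6 and 49.8 in adult livers and 202 and 249 in fetal livers. The 2D-iHs overlapped no fibroblast library but lay close to them, and the difference was not called (log2 fold change 0.06 ± 0.08, adjusted p = 0.48). Without the first 2D-iH library the same gene was called higher, at a log2 fold change of 0.25 (adjusted p = 0.035). *Col4a2* had 759 and 843 CPM in fibroblasts, 577 and 603 in 2D-iHs, 594 and 563 in 2D-iHEs, 224 and 226 in iHLOs, 207 and 195 in iHEAs, 26.5 and 32.2 in adult livers and 99.3 and 134 in fetal livers. It was lower in 2D-iHs than in fibroblasts by a modest amount (log2 fold change −0.52 ± 0.10, adjusted p = 1.7e-04). Per length, *Col4a1* stood to *Col4a2* as 0.993 and 0.986 in fibroblasts, 1.48 to 1.53 in the 4 libraries in 2D and 1.75 to 1.89 in the 4 libraries in 3D, so the chains did not move in strict proportion.

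*Col4a5*, which pairs with *Col4a6* or with *Col4a3* and *Col4a4* in specialised basement membranes, had 245 and 248 CPM in fibroblasts, 66.7 and 71.1 in 2D-iHs, 89.9 and 90.5 in 2D-iHEs, 37.5 and 34.6 in iHLOs, 33.1 and 32.5 in iHEAs, 4.02 and 4.80 in adult livers and 20.4 and 31.8 in fetal livers. It was 3.58 times lower in 2D-iHs than in fibroblasts (log2 fold change −1.92 ± 0.11, adjusted p = 1.1e-10). *Col4a6* had 14.1 and 14.3 CPM in fibroblasts, 0.242 and 0.137 in 2D-iHs, 0.427 and 0.528 in 2D-iHEs, 0.0347 and 0.0714 in iHLOs, 0.0349 and 0.0421 in iHEAs, 0.320 and 0.257 in adult livers and 8.23 and 13.2 in fetal livers. It was lost more deeply than *Col4a5*, at a log2 fold change of −6.25 ± 0.30. *Col4a3* had 0.424 and 0.362 CPM in fibroblasts, 0.182 and 0.274 in 2D-iHs, 0.228 and 0.240 in 2D-iHEs, 0.451 and 0.679 in iHLOs, 0.244 and 0.463 in iHEAs, 5.22 and 5.20 in adult livers and 0.942 and 1.14 in fetal livers. Adult liver held most of it. Its partner *Col4a4* had 1.57 and 1.74 CPM in fibroblasts, 1.24 and 1.27 in 2D-iHs, 1.65 and 1.25 in 2D-iHEs, 0.381 and 0.500 in iHLOs, 0.524 and 0.463 in iHEAs, 2.27 and 2.20 in adult livers and 0.767 and 2.56 in fetal livers. Neither of them was called between fibroblasts and 2D-iHs (adjusted p = 0.071 and 0.24).

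Just 2 collagen genes were called higher in 2D-iHs than in fibroblasts. *Col18a1*, which encodes type XVIII collagen, the source of endostatin, had 39.2 and 43.1 CPM in fibroblasts, 1371 and 1479 in 2D-iHs, 1888 and 1711 in 2D-iHEs, 536 and 511 in iHLOs, 566 and 467 in iHEAs, 759 and 790.3 in adult livers and 285 and 283 in fetal livers. It rose 34.6-fold to become the leading collagen of the cultures (log2 fold change 5.04 ± 0.11, adjusted p = 7.4e-16). *Col7a1*, of the anchoring fibrils, had 16.0 and 17.6 CPM in fibroblasts, 151 and 166 in 2D-iHs, 214 and 188 in 2D-iHEs, 4.16 and 2.89 in iHLOs, 6.495 and 4.17 in iHEAs, 0.466 and 0.742 in adult livers and 4.25 and 6.31 in fetal livers. It rose 9.41-fold from fibroblasts to 2D-iHs (log2 fold change 3.16 ± 0.14, adjusted p = 3.4e-12), and the libraries in 2D stood above all others.

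The remaining 19 tested genes outside the fibrillar and type IV classes were lower in 2D-iHs, where 42.9% of all genes were lower. Of the 6 type VI chains 3 were tested, and all 3 were lower, against the same 42.9%. *Col6a1* had 877 and 918 CPM in fibroblasts, 6.30 and 7.67 in 2D-iHs, 12.9 and 12.8 in 2D-iHEs, 14.6 and 18.2 in iHLOs, 39.9 and 31.3 in iHEAs, 9.88 and 11.2 in adult livers and 107 and 161 in fetal livers. *Col6a2* had 623 and 666 CPM in fibroblasts, 0.242 and 0.240 in 2D-iHs, 0.825 and 0.623 in 2D-iHEs, 2.12 and 3.68 in iHLOs, 7.05 and 6.19 in iHEAs, 7.23 and 5.82 in adult livers and 118 and 177 in fetal livers. *Col6a3* had 950.1 and 979 CPM in fibroblasts, 1.24 and 2.09 in 2D-iHs, 1.96 and 1.73 in 2D-iHEs, 8.95 and 9.14 in iHLOs, 11.9 and 13.0 in iHEAs, 11.0 and 10.9 in adult livers and 99.6 and 155 in fetal livers. Their log2 fold changes from fibroblasts to 2D-iHs were −7.09 ± 0.19, −11.43 ± 0.27 and −9.27 ± 0.21, and of the 3 chains *Col6a1* kept the most counts in 2D-iHs. *Col6a4* had 0 and 0.0724 CPM in fibroblasts, 0.0909 and 0.0343 in 2D-iHs, 0.0854 and 0 in 2D-iHEs, 0.104 and 0.0714 in iHLOs, 0 and 0.0421 in iHEAs, 0.0291 and 0.0286 in adult livers and 5.61 and 5.24 in fetal livers. *Col6a6* had 0.393 and 0.0724 CPM in fibroblasts, 0 in both in 2D-iHs, 0 in both in 2D-iHEs, 0 in both in iHLOs, 0.0698 and 0.0421 in iHEAs, 0.233 and 0.286 in adult livers and 10.4 and 23.1 in fetal livers. Both were highest in fetal liver. *Col6a5* reached at most 1.18 CPM, also in fetal liver.

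Short chain collagens were highest in fibroblasts. *Col8a2* had 1769.8 and 1924 CPM in fibroblasts, 0 and 0.0343 in 2D-iHs, 0.0285 and 0.0959 in 2D-iHEs, 0 in both in iHLOs, 0 in both in iHEAs, 0.320 and 0.400 in adult livers and 12.5 and 27.9 in fetal livers. Its partner chain *Col8a1* had 292 and 299.8 CPM in fibroblasts, 0.182 and 0.240 in 2D-iHs, 0.228 and 0.911 in 2D-iHEs, 0.798 and 1.11 in iHLOs, 0.419 and 0.337 in iHEAs, 0.845 and 0.714 in adult livers and 2.44 and 3.08 in fetal livers. Both form the type VIII network known from vessel walls, and of the 2 only *Col8a1* had more than 3 counts in any culture. *Col10a1*, a marker of hypertrophic cartilage, had 79.3 and 85.8 CPM in fibroblasts, 0.0606 and 0 in 2D-iHs, 0.0569 and 0.0959 in 2D-iHEs, 0 in both in iHLOs, 0.0349 and 0.0842 in iHEAs, 0 in both in adult livers and 0.0349 and 0 in fetal livers. It was at the floor outside fibroblasts, where 4991 counts stood against 2 in 2D-iHs, a ratio of 2558 (exact 95% counting interval 708 to 21128).

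FACIT collagens bind to the surface of fibrils. *Col12a1* had 2084 and 2051 CPM in fibroblasts, 0.727 and 0.480 in 2D-iHs, 1.14 and 1.44 in 2D-iHEs, 0.0347 and 0 in iHLOs, 0.314 and 0.0421 in iHEAs, 1.19 and 1.51 in adult livers and 33.2 and 79.4 in fetal livers. *Col14a1* had 453 and 448 CPM in fibroblasts, 0.0909 and 0.0685 in 2D-iHs, 0.0285 and 0.0959 in 2D-iHEs, 0.139 and 0 in iHLOs, 0.105 and 0 in iHEAs, 57.4 and 62.3 in adult livers and 119 and 135 in fetal livers. Both were high in fibroblasts and fetal livers, and *Col14a1* was the FACIT collagen with the most counts in adult livers. *Col16a1* had 328 and 380.5 CPM in fibroblasts, 0.939 and 0.720 in 2D-iHs, 1.08 and 0.480 in 2D-iHEs, 0.485 and 0.750 in iHLOs, 1.12 and 0.547 in iHEAs, 4.98 and 5.40 in adult livers and 37.2 and 64.5 in fetal livers. *Col20a1* had 10.9 and 11.3 CPM in fibroblasts, 3.48 and 4.35 in 2D-iHs, 3.93 and 4.36 in 2D-iHEs, 12.9 and 14.8 in iHLOs, 11.2 and 13.6 in iHEAs, 1.84 and 2.71 in adult livers and 0.977 and 2.01 in fetal livers. *Col20a1* was the FACIT gene least changed from fibroblasts to 2D-iHs, with a log2 fold change of −1.59 ± 0.19. The type IX chains, which decorate type II fibrils, differed among themselves. *Col9a1* had 5.69 and 6.55 CPM in fibroblasts, 0 in both in 2D-iHs, 0 in both in 2D-iHEs, 0 and 1.86 in iHLOs, 0.0349 and 0 in iHEAs, 0.0291 and 0.0286 in adult livers and 0.872 and 4.30 in fetal livers. The 1.86 CPM of 1 iHLO library were 52 counts against 0 in the other, so this value rests on 1 library. *Col9a2* had 3.03 and 2.71 CPM in fibroblasts, 0.0606 and 0.0343 in 2D-iHs, 0.0569 and 0.0480 in 2D-iHEs, 0.0347 and 0.0714 in iHLOs, 0.0698 and 0.0842 in iHEAs, 0 and 0.0857 in adult livers and 30.4 and 43.0 in fetal livers. *Col9a3* had 38.3 and 41.7 CPM in fibroblasts, 2.73 and 2.81 in 2D-iHs, 3.10 and 3.31 in 2D-iHEs, 2.29 and 2.75 in iHLOs, 3.11 and 2.65 in iHEAs, 0.466 and 0.543 in adult livers and 5.02 and 13.3 in fetal livers. It had 63 to 109 counts in the culture libraries, while *Col9a1* and *Col9a2* were mostly at the floor. *Col19a1* had 8.57 and 6.66 CPM in fibroblasts, 0 in both in 2D-iHs, 0 in both in 2D-iHEs, 0 in both in iHLOs, 0 in both in iHEAs, 0 in both in adult livers and 0.244 and 0.237 in fetal livers. Its 467 counts in fibroblasts against 0 in 2D-iHs made it at least 78.6-fold lower there, against a floor of 3 counts in each library. *Col22a1* reached at most 2.64 CPM, in fetal liver.

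Transmembrane collagens were at low levels in the cultures, each below 1 CPM. *Col23a1* had 101 and 99.99 CPM in fibroblasts, 0.242 and 0.308 in 2D-iHs, 0.228 and 0.336 in 2D-iHEs, 0.694 and 0.286 in iHLOs, 0.175 and 0.547 in iHEAs, 1.34 and 1.34 in adult livers and 11.1 and 18.1 in fetal livers. *Col25a1* had 4.09 and 5.10 CPM in fibroblasts, 0.0303 and 0.0685 in 2D-iHs, 0.0569 and 0 in 2D-iHEs, 0.0694 and 0 in iHLOs, 0.140 and 0.0421 in iHEAs, 0.554 and 0.485 in adult livers and 20.5 and 22.6 in fetal livers. The former was highest in fibroblasts and the latter in fetal livers. *Col13a1* had 0 and 0.0724 CPM in fibroblasts, 0 in both in 2D-iHs, 0 in both in 2D-iHEs, 0.0347 and 0 in iHLOs, 0.0349 and 0 in iHEAs, 4.17 and 4.08 in adult livers and 9.59 and 15.6 in fetal livers. It was a liver gene in these data, with no more than 2 counts in any fibroblast or culture library. *Col17a1*, of hemidesmosomes, reached at most 2.48 CPM, in fetal liver. Of the genes without a class, *Col26a1* had 2.54 and 2.79 CPM in fibroblasts, 0 in both in 2D-iHs, 0 in both in 2D-iHEs, 0 and 0.0357 in iHLOs, 0 in both in iHEAs, 0 in both in adult livers and 11.9 and 31.5 in fetal livers. It was highest in fetal livers and had at most 1 count in the cultures. *Col28a1* had 5.42 and 7.02 CPM in fibroblasts, 0.0909 and 0.0685 in 2D-iHs, 0.0569 and 0.144 in 2D-iHEs, 0.381 and 0.214 in iHLOs, 0.279 and 0.716 in iHEAs, 0.0874 and 0.0857 in adult livers and 0.837 and 0.394 in fetal livers. It had the most counts in fibroblasts, with 2 to 17 counts in the cultures.

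*Col15a1*, the second multiplexin, had 6.87 and 7.96 CPM in fibroblasts, 0.485 and 0.308 in 2D-iHs, 0.569 and 0.528 in 2D-iHEs, 63.8 and 44.3 in iHLOs, 30.0 and 29.8 in iHEAs, 14.2 and 13.5 in adult livers and 8.30 and 13.8 in fetal livers. It was called lower in 2D-iHs than in fibroblasts (log2 fold change −4.26 ± 0.38, adjusted p = 3.1e-08), and its highest CPM were in the 3D cultures. CPM rest on library totals, and the order of 3D cultures and adult livers depends on the scaling. With the size factors of DESeq2, iHLOs against adult livers had a log2 fold change of 0.34 and no call.

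The next comparison asks how growth in 3D changed the collagen genes, with and without iECs. Of the 44 genes, 24 passed the filter over the 8 culture libraries. In iHLOs against 2D-iHs, 9 were called higher and 10 lower, while over all 13409 genes 36.9% were higher and 35.3% lower. In iHEAs against 2D-iHEs, 7 were higher and 10 lower, against 36.0% and 34.9% of all genes. The 2 comparisons use separate libraries and 1 shared estimate of spread. They had 7 genes higher in both and 9 lower in both, and no gene was called in opposite directions. The share of all genes called alike in both pairs was not computed, so these counts are not read as particular to collagens. Taking the libraries as 4 against 4, 8 genes were higher and 10 lower, against 38.7% and 37.2% of all genes. The median log2 fold change of the 24 was −0.55 in the pair without iECs, −0.26 in the pair with iECs and −0.29 in the pooled test, against 0.01 over all genes in each of them. Markers of other cell types moved between the same libraries. Of 7 tested endothelial markers 5 were higher in iHLOs, where 36.9% of all genes were higher, and their sum was 532 and 528 CPM in 2D-iHs and 1409 and 1577 CPM in iHLOs, mostly *Vwf*, while *Pecam1* stayed below 1 CPM and *Kdr* had 0.0694 and 0.143 CPM. The sum of fibroblast markers was 1121 and 1009.9 CPM in iHLOs, and of 10 tested markers 2 were higher and 4 lower. *Pdgfra* went from 0.455 and 0.548 CPM in 2D-iHs to 7.25 and 2.61 CPM in iHLOs and *Pdgfrb* from 0 and 0.0343 to 1.53 and 1.46 CPM, while *Lum* and *Thy1* were at or near 0 in both. The part of either list was not tested.

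Basement membrane chains were lower in 3D. *Col4a1* had 863.6 to 931 CPM in the 4 libraries in 2D, with a median of 896, and 377 to 426 CPM in the 4 in 3D, with a median of 397. The ranges did not overlap, and the log2 fold changes were −1.13 ± 0.06 without iECs and −1.25 ± 0.06 with iECs (adjusted p = 1.0e-09 and 4.1e-10). *Col4a2* fell slightly more, by log2 fold changes of −1.42 ± 0.05 and −1.55 ± 0.05. *Col4a5* went from 66.7 to 90.5 CPM in 2D to 32.5 to 37.5 CPM in 3D, with log2 fold changes of −0.96 ± 0.06 and −1.48 ± 0.06. *Col4a4* was lower too, from 1.24 to 1.65 CPM to 0.381 to 0.524 CPM. Of the tested type IV genes, *Col4a3* alone was called higher, in iHLOs (log2 fold change 1.28 ± 0.46, adjusted p = 0.023), on 5 to 19 counts per culture library. In iHEAs it was not called (log2 fold change 0.55 ± 0.52). The call in iHLOs was lost without the first 2D-iH library, without the second iHLO library and in the Wald test of DESeq2. *Col4a6* was under the filter. It had 12 counts in 2D-iHs and 3 in iHLOs, a ratio of 3.66 (exact 95% counting interval 0.987 to 20.2), and 26 counts in 2D-iHEs and 2 in iHEAs, a ratio of 12.2 (3.04 to 106). Each of the 4 libraries in 3D lay below each of the 4 in 2D.

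The multiplexins moved in opposite directions. *Col18a1* was 1371 to 1888 CPM in 2D and 467 to 566 CPM in 3D. Its log2 fold change was −1.47 ± 0.08 without iECs and −1.82 ± 0.08 with them. *Col15a1* was 0.308 to 0.569 CPM in 2D and 29.8 to 63.8 CPM in 3D. This was the largest rise of a collagen gene between the 2 states, with log2 fold changes of 7.03 ± 0.25 and 5.73 ± 0.26 (adjusted p = 3.6e-11 and 4.1e-10). Even so, *Col15a1* stayed below *Col18a1* per length, with means of 10.4 against 93.6 RPKM in iHLOs. *Col7a1* had the largest fall of a tested collagen gene in both pairs, from 151 to 214 CPM in 2D to 2.89 to 6.495 CPM in 3D, with log2 fold changes of −5.51 ± 0.15 and −5.23 ± 0.14 (adjusted p = 4.0e-12 and 4.1e-12).

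All 3 tested chains of type VI were higher in 3D, where 36.9% of all genes were higher in iHLOs and 36.0% in iHEAs. *Col6a1* rose from 6.30 to 12.9 CPM to 14.6 to 39.9 CPM, *Col6a2* from 0.240 to 0.825 CPM to 2.12 to 7.05 CPM, and *Col6a3* from 1.24 to 2.09 CPM to 8.95 to 13.0 CPM. The ranges were separate for each chain. In iHLOs the log2 fold changes were 1.21 ± 0.15, 3.54 ± 0.37 and 2.43 ± 0.19, and in iHEAs 1.46 ± 0.13, 3.13 ± 0.29 and 2.71 ± 0.18. Even with this rise, the iHEAs stayed far below the 877 and 918 CPM of *Col6a1* in fibroblasts. *Col20a1* rose from 3.48 to 4.36 CPM to 11.2 to 14.8 CPM, by log2 fold changes of 1.80 ± 0.14 and 1.57 ± 0.15.

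Fibrillar genes split. *Col11a2* rose from 7.39 to 8.97 CPM to 22.9 to 25.6 CPM, with log2 fold changes of 1.64 ± 0.09 and 1.46 ± 0.10, although its partner *Col11a1* had at most 20 counts in any culture library. *Col5a3* rose on low counts, from 3 and 1 in 2D-iHs to 51 and 37 in iHLOs, a ratio of 24.1 (exact 95% counting interval 9.08 to 90.3). The 2D-iHEs had 12 and 4 counts and the iHEAs 29 and 25. *Col1a1* fell from 2D-iHEs to iHEAs by a log2 fold change of −4.26 ± 0.26 (adjusted p = 9.5e-09) and from 2D-iHs to iHLOs by −0.82 ± 0.24 (adjusted p = 0.0088). The latter call was lost without the second 2D-iH library (adjusted p = 0.053), without the second iHLO library (adjusted p = 0.095) and in the fit of all 14 libraries (adjusted p = 0.083). *Col2a1* was lower in 3D, with 15 to 28 counts per library in 2D and 3 to 5 in 3D. Its call in iHLOs was lost in the Wald test (adjusted p = 0.063) and in the fit of all 14 libraries (adjusted p = 0.31), and its call in iHEAs in the latter fit (adjusted p = 0.075). *Col5a1* was lower in iHLOs (log2 fold change −0.80 ± 0.21), but not called in iHEAs (−0.12 ± 0.19), where its libraries had 18.5 and 10.4 CPM and the call returned without the first of them (log2 fold change −0.61, adjusted p = 1.1e-04). *Col5a2* was called lower in iHEAs, on 21 and 2 counts, and the call was lost without the first 2D-iHE library (log2 fold change −1.70). In iHLOs it was not called, but it was called lower with the replicate block (log2 fold change −1.13) and without the filter on low counts (−1.11). *Col12a1*, a FACIT gene, fell from 38 counts in 2D-iHs to 1 in iHLOs, a ratio of 34.7 (exact 95% counting interval 5.87 to 1407), and this call was lost in the fit of all 14 libraries (adjusted p = 0.060). *Col8a1* was called higher in iHLOs (log2 fold change 2.14 ± 0.55), on 6 and 7 counts in 2D-iHs and 23 and 31 in iHLOs. From 2D-iHEs to iHEAs it went from 8 and 19 to 12 and 8 counts and was not called (−0.42 ± 0.57), but it was called lower without the first 2D-iHE library (−1.26, adjusted p = 0.034). Neither pair gave a call for *Col9a3*, *Col16a1*, *Col23a1* and *Col27a1*. Of the 20 genes under the filter, none had more than 52 counts in a culture library.

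**Figure D4:**
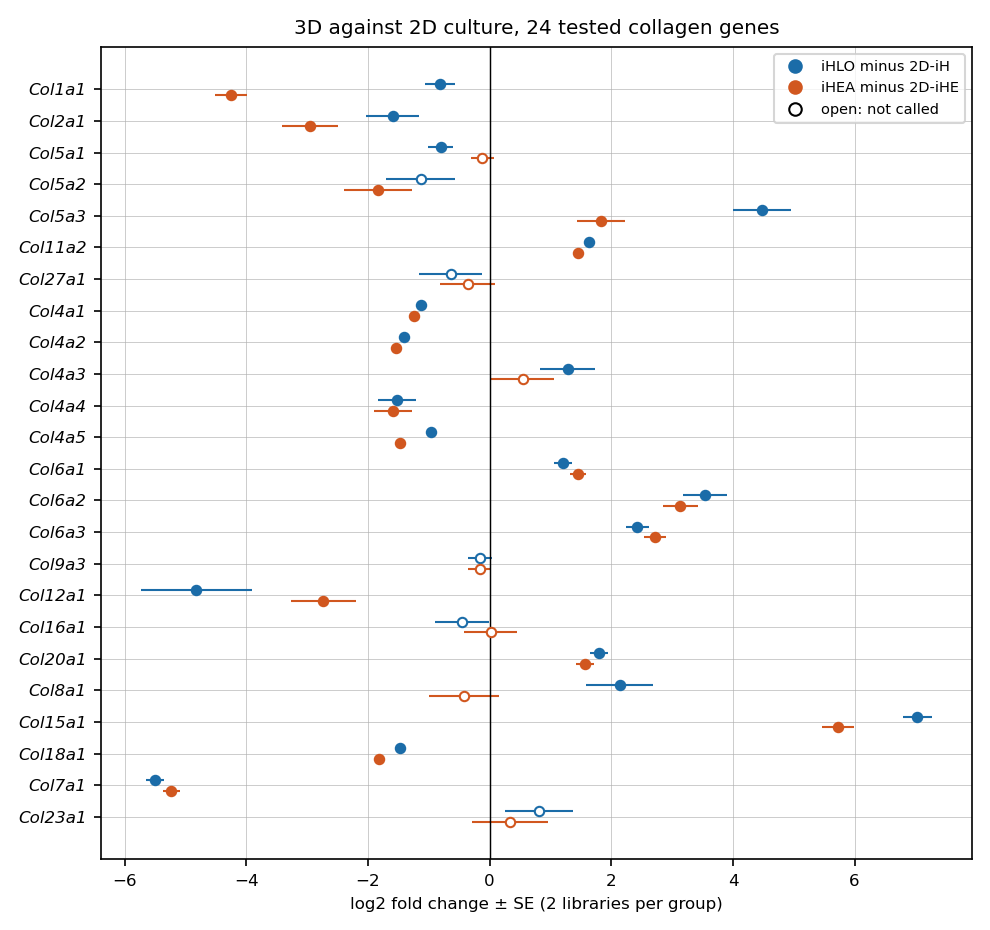
Log2 fold change ± SE from 2D to 3D for the 24 tested collagen genes, in iHLOs against 2D-iHs and in iHEAs against 2D-iHEs, with open symbols where the adjusted p was not under 0.05. Col15a1 lies farthest right, at 7.03 and 5.73, and Col7a1 farthest left, at −5.51 and −5.23.

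The effect of iECs on the collagen genes was smaller than that of 3D culture. In 2D-iHEs against 2D-iHs, 4 of the 24 genes were higher and none lower by edgeR, where 10 had an unadjusted p under 0.05, while 4.26% of all genes were higher and 3.92% lower. *Col1a1* rose from 2.82 and 3.19 CPM to 12.5 and 11.2 CPM (log2 fold change 1.96 ± 0.20, adjusted p = 9.6e-05), while *Col1a2* had 1 and 3 counts in 2D-iHEs. *Col6a1* rose from 6.30 and 7.67 to 12.9 and 12.8 CPM (log2 fold change 0.86 ± 0.15, adjusted p = 0.0044), *Col4a5* from 66.7 and 71.1 to 89.9 and 90.5 CPM (0.36 ± 0.06, adjusted p = 0.0023), and *Col18a1* from 1371 and 1479 to 1888 and 1711 CPM (0.31 ± 0.08, adjusted p = 0.037). Without either of the 2D-iH libraries, or either of the 2D-iHE libraries, *Col18a1* was not called, and *Col6a1* was not called without the first library of 2D-iHs or of 2D-iHEs, which left 2 genes called. The call of *Col18a1* was also lost in the Wald test of DESeq2 (adjusted p = 0.10), and that of *Col4a5* in the fit of all 14 libraries (adjusted p = 0.064). None of 10 tested fibroblast markers was called, with 1 at an unadjusted p under 0.05 (edgeR), and their sum was 2525 and 2393 CPM in 2D-iHEs. How far human reads of the iECs that aligned to mouse genes entered these values was not tested.

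In iHEAs against iHLOs, 3 of the 24 genes were higher and 2 lower, while 1.19% of all genes were higher and 1.07% lower. The genes that rose were *Col6a1*, from 14.6 and 18.2 to 39.9 and 31.3 CPM (log2 fold change 1.10 ± 0.13, adjusted p = 6.4e-04), *Col6a2*, from 2.12 and 3.68 to 7.05 and 6.19 CPM (1.18 ± 0.24, adjusted p = 0.024), and *Col5a1*, from 7.07 and 6.29 to 18.5 and 10.4 CPM (1.11 ± 0.20, adjusted p = 0.015). The iHEA libraries differed for *Col5a1*, but both lay above both iHLO libraries. *Col15a1* fell from 63.8 and 44.3 to 30.0 and 29.8 CPM (log2 fold change −0.88 ± 0.13, adjusted p = 0.0038), and *Col1a1* from 2.05 and 1.39 to 0.838 and 0.379 CPM (−1.47 ± 0.33, adjusted p = 0.038). *Col6a1* and *Col15a1* kept their calls whichever library was left out. The other 3 calls did not. Without the first iHLO library 2 genes were called, and *Col1a1* (adjusted p = 0.32), *Col5a1* (0.11) and *Col6a2* (0.19) were not. Without the second iHLO library 3 were called, and *Col1a1* (0.059) and *Col5a1* (0.16) were not. *Col1a1* also lost its call without the second iHEA library (0.076) and in the fit of all 14 libraries (0.36). Of 13 fibroblast markers, 10 were tested and 1 was higher in iHEAs, where 1.19% of all genes were higher. Their sum was 1364 and 909 CPM in iHEAs and 1121 and 1009.9 CPM in iHLOs. Of 7 tested endothelial markers 3 were lower, where 1.07% of all genes were lower, and their sum was 1409 and 1577 CPM in iHLOs and 1107 and 1045 CPM in iHEAs, with *Vwf* going from 764 and 900.3 to 538 and 503 CPM and *Pecam1* below 1 CPM. The part of either list was not tested.

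**Figure D5:**
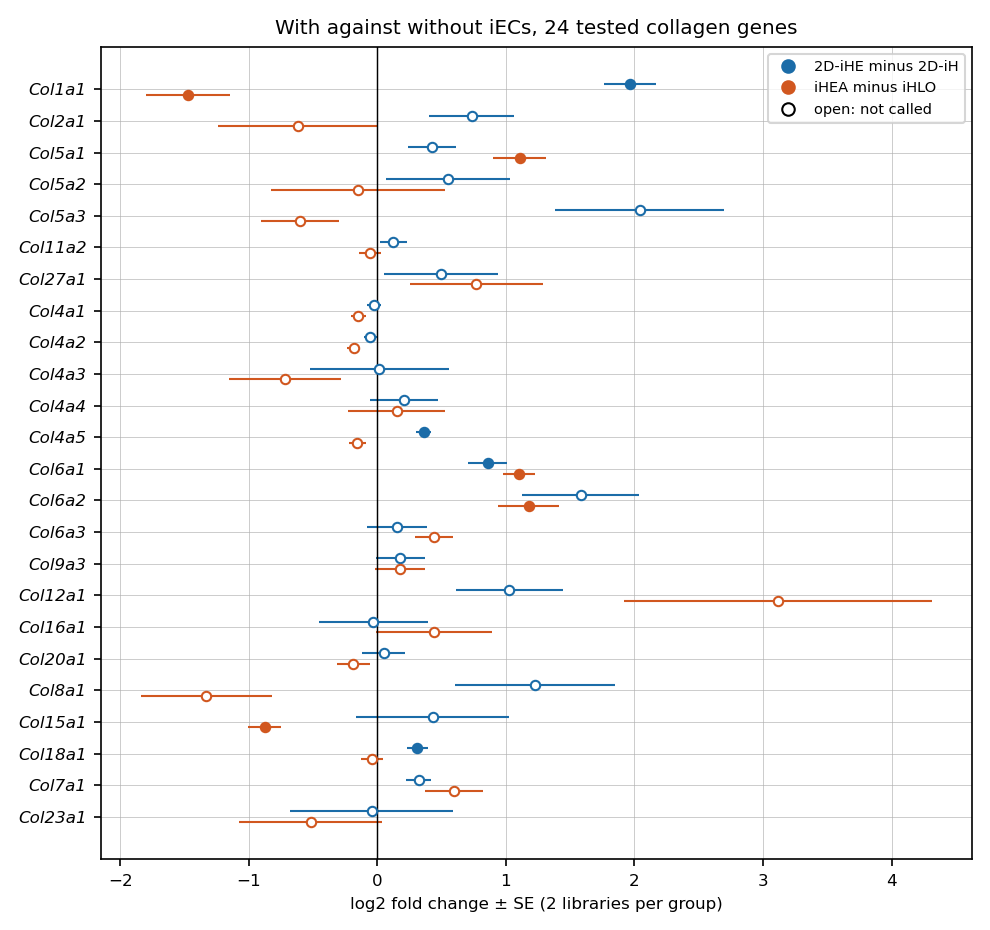
Log2 fold change ± SE with against without iECs for the 24 tested collagen genes, in 2D (2D-iHE minus 2D-iH) and in 3D (iHEA minus iHLO), with open symbols where the adjusted p was not under 0.05. Col1a1 lies at 1.96 in 2D and at −1.47 in 3D, and Col6a1 lies right of 0 in both.

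Whether iECs acted differently in 3D and in 2D was tested as the difference of both effects. The test called 2 of the 24 genes, both lower, while 1.62% of all genes were lower and 1.52% higher. For *Col1a1* the difference was −3.44 ± 0.38 on the log2 scale (adjusted p = 5.0e-04), since the gene was higher with iECs in 2D and lower with them in 3D. For *Col4a5* it was −0.52 ± 0.09 (adjusted p = 0.0069), which was not called without the first 2D-iH library (adjusted p = 0.054), without the first iHLO library (adjusted p = 0.052) or in the fit of all 14 libraries (adjusted p = 0.13). For *Col6a1* the difference was 0.24 ± 0.20 (adjusted p = 0.64). Without either iHEA library the count was 4, with a higher call of *Col5a1* without the second of them.

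The livers give the reference for these levels. Of the 44 genes, 42 were tested between adult and fetal liver, and 7 were higher and 31 lower in adult liver, while 41.8% of all genes were higher and 43.4% lower. The median log2 fold change was −2.02, against −0.05 over all genes, and all fibrillar genes but *Col5a3* were lower. The call of *Col27a1* (−0.34 ± 0.11) was lost in the Wald test of DESeq2 (adjusted p = 0.078) and without the first or the second adult library (adjusted p = 0.13 and 0.076). *Col3a1* had 46.8 and 49.2 CPM in adult and 791 and 1279 CPM in fetal liver, *Col1a1* 9.003 and 7.97 and 570.2 and 1061 CPM, and the second fetal library lay above the first for both. Their log2 fold changes were −2.96 ± 0.19 and −5.11 ± 0.24. Albumin alone took 23.6% and 22.5% of the adult counts, and the fit corrected for such composition by TMM factors. Over genes filtered on all 14 libraries these were 0.429 and 0.438 for adult liver, and each fit recomputed them over the genes it tested. With library totals alone the median log2 fold change over all genes shifted by −1.47. The higher genes were *Col18a1* (2.91 ± 0.10), *Col5a3* (4.14 ± 0.18), *Col4a3* (3.79 ± 0.24), *Col4a4* (1.92 ± 0.36), *Col20a1* (2.10 ± 0.27), *Col15a1* (1.81 ± 0.19) and *Col14a1* (0.38 ± 0.08). With library totals alone, *Col15a1* was not called (log2 fold change 0.34) and *Col14a1* was lower (−1.09). Of 10 stellate cell markers, 5 were higher and 5 lower in adult liver. Their sum was 277 and 276 CPM in adult and 411 and 400.4 CPM in fetal liver, of which *Reln* took 40.1 and 41.2 and 294 and 269 CPM. *Lrat* had 13.2 and 12.8 CPM in adult and 5.13 and 4.22 CPM in fetal liver. Erythroid markers summed to 243 and 227 and 28461 and 27575 CPM, and the part of either list was not tested.

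Set against adult liver, iHLOs had more *Col4a1*, *Col4a2* and *Col4a5* and less of most other collagens, *Col4a3* and *Col4a4* among them. Of 27 tested genes 7 were higher and 19 lower, while 47.3% of all genes were higher and 40.0% lower. The median log2 fold change was −2.57, against 0.15 over all genes. With library totals alone 9 were higher and 15 lower, and the median log2 fold change over all genes shifted by 1.40. *Col4a1* (1.73 ± 0.09), *Col4a2* (1.54 ± 0.11), *Col4a5* (1.63 ± 0.16) and *Col11a2* (3.01 ± 0.18) were higher in iHLOs, as were *Col20a1* (1.21 ± 0.20), *Col7a1* (1.15 ± 0.38) and *Col15a1* (0.57 ± 0.17). The call of *Col7a1* was lost without the first iHLO or the first adult library, and that of *Col15a1* without the first iHLO library or without either adult library, and also with the size factors of DESeq2 (log2 fold change 0.34, adjusted p = 0.069) and in its Wald test (0.34, adjusted p = 0.077). *Col4a3* (−4.59 ± 0.24), *Col4a4* (−3.73 ± 0.41), *Col3a1* (−8.78 ± 0.37), *Col18a1* (−1.96 ± 0.09) and *Col27a1* (−7.43 ± 0.22) were lower. The counts of *Col3a1* in iHLOs were 16 and 0, so its fold rests on the first library. *Col1a2* had no count in iHLOs and was at least 140-fold lower than in adult liver, against a floor of 3 counts in each library. *Col6a1* was lower in the fit (−0.76 ± 0.19) but higher with library totals alone (0.64), and *Col8a1* went from −1.10 ± 0.34 to 0.29, which was not called. Hepatocyte markers summed to 260194 and 249106 CPM in adult liver and 456 and 427 CPM in iHLOs, and cholangiocyte markers to 110.4 and 115 CPM in adult liver and 1495 and 1419.8 CPM in iHLOs. Their part in these differences was not tested.

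Against fetal liver, 2D-iHs had 7 of 39 tested genes higher and 31 lower, while 41.5% of all genes were higher and 44.3% lower, and the median log2 fold change was −5.66 against −0.05 over all genes. The higher genes were *Col7a1* (5.02 ± 0.16), *Col4a2* (2.44 ± 0.11), *Col18a1* (2.43 ± 0.10), *Col4a1* (2.09 ± 0.09), *Col4a5* and *Col20a1* (both 1.51) and *Col11a2* (0.33 ± 0.15, adjusted p = 0.049). The call of *Col11a2* was lost in the fit without either 2D-iH library, without the first fetal library and with other scalings. Per length, fetal liver led with *Col3a1* and the 2D-iHs with *Col18a1*. Between the same libraries erythroid markers summed to 28461 and 27575 CPM in fetal liver and 1.06 and 0.411 CPM in 2D-iHs, and hepatocyte markers to 16283 and 13304 CPM in fetal liver and 329 and 355 CPM in 2D-iHs. The part of either list was not tested.

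The genes that modify, export and crosslink collagen were followed as 46 genes in 5 lists. From fibroblasts to 2D-iHs, 8 of the 43 tested were higher and 32 lower, with a median log2 fold change of −2.39, while 42.0% of all genes were higher and 42.9% lower. From 2D-iHs to iHLOs 11 of 35 were higher and 17 lower (median −0.11), against 36.9% and 35.3% of all genes. The pair with iECs had 10 higher and 20 lower (median −0.53), against 36.0% and 34.9%. In 2D-iHEs against 2D-iHs 4 of 35 were higher and none lower by edgeR, with 10 at an unadjusted p under 0.05, against 4.26% and 3.92% of all genes. In iHEAs against iHLOs 3 of 35 were lower, against 1.07%.

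Of the crosslinking enzymes, all 5 tested genes were lower in iHLOs and in iHEAs (35.3% and 34.9% of all genes were lower), and the median log2 fold changes were −1.75 and −2.30. *Lox*, the lysyl oxidase of fibrillar collagen, had 1807 and 1768 CPM in fibroblasts, 2.09 and 1.95 CPM in 2D-iHs and no count in iHLOs. *Loxl2*, which also acts on type IV collagen, had 79.7 and 84.4 CPM in 2D-iHs and 3.54 and 2.04 CPM in iHLOs (log2 fold change −4.90 ± 0.13, adjusted p = 3.0e-12). *Loxl3* fell by 1.75 on the log2 scale. *Pxdn*, the peroxidasin that crosslinks type IV collagen, had 136 and 134 CPM in 2D-iHs and 43.8 and 42.8 CPM in iHLOs.

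Genes for propeptide processing were also lower in 3D, with 3 of 3 tested called in both pairs (35.3% and 34.9% of all genes were lower). *Pcolce2* went from 16.5 and 16.0 CPM in 2D-iHs to 0.520 and 0.500 CPM in iHLOs, and *Bmp1*, the C-proteinase, from 37.2 and 38.9 to 19.3 and 17.5 CPM. *Pcolce*, the leading gene of the list in fibroblasts at 1031 and 1113 CPM, had 11.4 and 12.6 CPM in 2D-iHs and 10.2 and 10.5 CPM in iHLOs. Of chaperones and export genes, 3 of 7 tested were higher and 3 lower in each pair, against 36.9% and 35.3% of all genes in iHLOs and 36.0% and 34.9% in iHEAs. *Serpinh1*, which encodes the collagen chaperone HSP47, had 1397 and 1479.9 CPM in fibroblasts, 276 and 284 CPM in 2D-iHs and 96.0 and 94.4 CPM in iHLOs (log2 fold change from 2D −1.58 ± 0.06, adjusted p = 7.2e-11). *Tmem38b* moved the other way, by a log2 fold change of 0.95 ± 0.06, and *Sec24d* of the export coat by −0.77 ± 0.05.

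Hydroxylating and glycosylating enzymes had 14 tested genes, of which iHLOs showed 7 higher and 4 lower, and iHEAs 6 in each direction. The shares over all genes were 36.9% higher and 35.3% lower in iHLOs, and 36.0% and 34.9% in iHEAs. *P4ha3*, a prolyl 4-hydroxylase subunit, went from 18.999 and 20.87 CPM to 3.40 and 3.29 CPM from 2D-iHs to iHLOs, *P3h2* from 4.61 and 6.24 to 0.832 and 0.750 CPM, and *P3h4* from 29.7 and 30.5 up to 72.4 and 75.5 CPM. *P4hb*, the shared subunit and the most abundant of the list, changed least of these, from 1461 and 1455 to 1885 and 1875 CPM. Of 6 tested collagen receptors, 1 was higher and 2 lower in iHLOs, against the same 36.9% and 35.3%. *Ddr1* had a log2 fold change of 0.74 ± 0.08, and *Itgb1* of −0.70 ± 0.05, while *Itga2* went from 289.6 and 276 to 141 and 146 CPM. In fibroblasts against 2D-iHs, *Mrc2*, an endocytic collagen receptor, had 877 and 929 against 0.152 and 0.103 CPM, and *Itga11* 126 and 132 against 0.0909 and 0.0685 CPM. *Fkbp10* had 453 and 477 against 0.121 and 0.137 CPM. These 3 genes were lower, while *Itga2*, another collagen receptor, had 24.9 and 24.4 CPM in fibroblasts and 289.6 and 276 CPM in 2D-iHs.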

How the data were processed

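RNA-seq libraries of 7 conditions, 2 each, were analysed. The authors trimmed reads with Trimmomatic 0.36, aligned them to the mouse genome (GRCm38, mm10) with HISAT2 and counted reads per gene with HTSeq, and the submitters' processing notes also name Cufflinks. How strand and multiply aligned reads were handled, and with which annotation release, is not given in the sources used here. The deposited values are raw counts per gene, and no column of another sample had to be left aside (0 columns). Totals were 20851489 to 35143325 counts per library, and a count of 3 was the floor. Counts were scaled to CPM by library totals, and to RPKM by the longest protein-coding transcript. Groups were taken from the sample labels. Tests were fitted across all genes whose log2(count + 1) averaged 3 or more by edgeR 4.0.16 in R 4.3.3 (TMM factors, quasi-likelihood test), with Benjamini-Hochberg adjustment over all genes tested and a threshold of 0.05. The 8 culture libraries shared 1 fit, and comparisons with fibroblasts or livers came from a fit of all 14, with genes filtered over the 4 libraries compared. The common biological coefficient of variation of the culture fit was 4.76%. Over genes filtered on all 14 libraries, TMM factors were 0.429 and 0.438 in adult liver, against 1.11 to 1.20 in the other libraries. Each fit recomputed them over the genes it tested.

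Every collagen gene was described by class. Values in every library were given for genes with a mean of at least 5 CPM in a condition and their partner chains, and other genes by their range or highest value. Of the genes that modify collagen, up to 3 called genes per list with the largest change and the most abundant gene were named. The members and lists were chosen with earlier results of these data known. Ratios with 1 to 3 counts in a library carry exact 95% counting intervals. The scripts were tested on simulated data. Alternatives were DESeq2 1.42.0 size factors and Wald test, other filters, a fold threshold, a replicate block, all 14 libraries, and leaving out each library. Gene lengths by union of exons and library totals alone were added after seeing the data.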

Additional observations from a re-analysis of the deposited data

Results flagged for a closer look

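Of 48 sets of 4 libraries checked over the tested collagen genes, 3 had a library far from the other 3, where about 2.4 would be by chance at 1 in 20. Among the 3D libraries, *Col12a1* had 0.314 CPM in the first iHEA library and 0 to 0.0421 CPM in the others, a gap of 0.866 of the whole range (Dixon's test for 4 samples). Among the 2D libraries, *Col4a4* had 1.65 CPM in the first 2D-iHE library and 1.24 to 1.27 CPM in the others, a gap of 0.938 of the range. In the same set, *Col8a1* had 0.911 CPM in the second 2D-iHE library and 0.182 to 0.240 CPM in the others, a gap of 0.920.

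The effect of iECs differed between 3D and 2D for 2 genes. For *Col1a1* the difference on the log2 scale was −3.44 ± 0.38 (SE, edgeR adjusted p = 0.000498), and both 3D libraries with iECs were below both without them while both 2D libraries with iECs were above. For *Col4a5* it was −0.52 ± 0.09 (adjusted p = 0.00692), with the 2D libraries higher with iECs.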

How the results depend on the processing

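Over all comparisons and alternatives, 110 counts of called collagen genes stayed within 1.5 times the reported count and 15 moved further. Of the log2 fold changes of single genes, 2847 kept their direction and their side of the threshold, 58 lost a call, 50 gained one and 3 changed sign. In 2D-iHEs against 2D-iHs, 4 genes were called, and the count was 1 when the log2 fold change also had to reach 1 in size, 8 without a filter on low counts, 8 with a replicate block, and 2 to 3 when a library was left out. In iHEAs against iHLOs, 5 were called, 9 without the filter and 2 to 6 when a library was left out. For the difference of both effects, 2 were called, 1 with the fold threshold, 1 in the fit of all 14 libraries, 7 without the filter and 1 to 4 when a library was left out. With library totals alone, the sign changed for *Col14a1* in adult against fetal liver (−1.09) and for *Col6a1* (0.64) and *Col8a1* (0.29) in iHLOs against adult liver. In the same setting the median log2 fold change over all genes shifted by −1.47 in the former comparison and by 1.40 in the latter. The cause of the other changes was not tested.

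The libraries share only a number: deviations of same-numbered libraries correlated at −0.215 to 0.211 over 15 pairs of conditions. The replicate block left out the iHEA libraries, since the number of one of them is unclear, and it moved no other count of called collagen genes by more than 1.5 times. Genes with few counts, such as *Col4a3* and *Col2a1* in the cultures, lost calls in some settings, and the part of depth was not tested.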
